A study of Mus musculus with 5 samples.

Results

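The smooth muscle contractile genes are a set of 10 genes that build and regulate the contractile apparatus: the actins Acta2 and Actg2, the actin-binding genes Tagln, Cnn1, Cnn2 and Cald1, the tropomyosins Tpm1 and Tpm2, the myosin regulatory light chain Myl9 and the myosin light chain kinase Mylk. Its members were found as every probe that the platform annotation gives one of these symbols, which returned 15 probes for 9 of the 10 genes, out of 20984 probes and 15967 genes with a single symbol. Myl9 had no probe under its name and was not analysed here. The arrays measured F9 cells, a mouse embryonal carcinoma line whose retinoic acid-treated cultures turn towards extra-embryonic endoderm. There were 3 arrays of Sox7/Sox17 double knockdown cells and 2 arrays of control cells, and the labels give retinoic acid as the treatment of all of them. The dose and time of retinoic acid, the means of knockdown, what the control cells received and whether the arrays came from separate cultures are not given in the labels, so p-values measure the spread between these arrays, which may be technical. The question addressed is whether a change in Acta2, already known from these arrays when the genes were chosen, came with changes in the other contractile genes.

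In smooth muscle, thin filaments of actin, tropomyosin, calponin and caldesmon slide past myosin once Mylk has phosphorylated the myosin regulatory light chain. Many of these genes are switched on together by serum response factor (SRF) with its cofactors of the myocardin family, which bind a DNA element called the CArG box. Acta2, Tagln, Cnn1 and Actg2 mark smooth muscle and related contractile cells, whereas Cnn2, Cald1 and the tropomyosins also have roles in the cytoskeleton of many non-muscle cells.

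Values are the deposited normalized intensities. Differences are knockdown minus control on the log2(intensity + 16) scale, with values below 0 set to 0, and understate changes of dim probes. A probe counted as above noise where it passed a threshold of 20.1 to 20.2 intensity units, estimated from each array's own values below 0. It was tested where 2 or more of the 5 arrays, of either group, passed. A call is an adjusted p under 0.05 from limma, adjusted by Benjamini-Hochberg over all 13624 probes tested, and every adjusted p below comes from that fit. The targeted genes were lower on each knockdown array. Sox17 had 283, 309 and 243 in knockdown cells, against 1798 and 1732 in control cells, and fell by 2.60 (SE 0.125, adjusted p = 0.00081). Sox7 had 490, 403 and 472 in knockdown cells, against 1306 and 1152 in control cells, and fell by 1.40 (SE 0.126, adjusted p = 0.0021).

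Acta2 rose in the knockdown cells, Tpm2 rose by less and Tpm1 fell, and no other contractile gene was called. Of the 6 members with a tested probe, 2 were called higher, 1 was called lower and 3 were not called. The rise of Acta2 was known when the genes were chosen, so its call does not bear on the question. Leaving Acta2 aside, Tpm2 alone was called higher and Tpm1 alone lower. Over all 9685 genes tested, 17.0% were called, 8.99% as higher and 7.98% as lower, so calls in both directions were common on these arrays. Actg2, Tagln and Cnn1 were not tested, because no probe of theirs was above noise on any array. Of the 15 probes, 9 were not tested, and 8 of these were never above noise, beside 40.4% of all probes on the array.

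**Figure D1:**
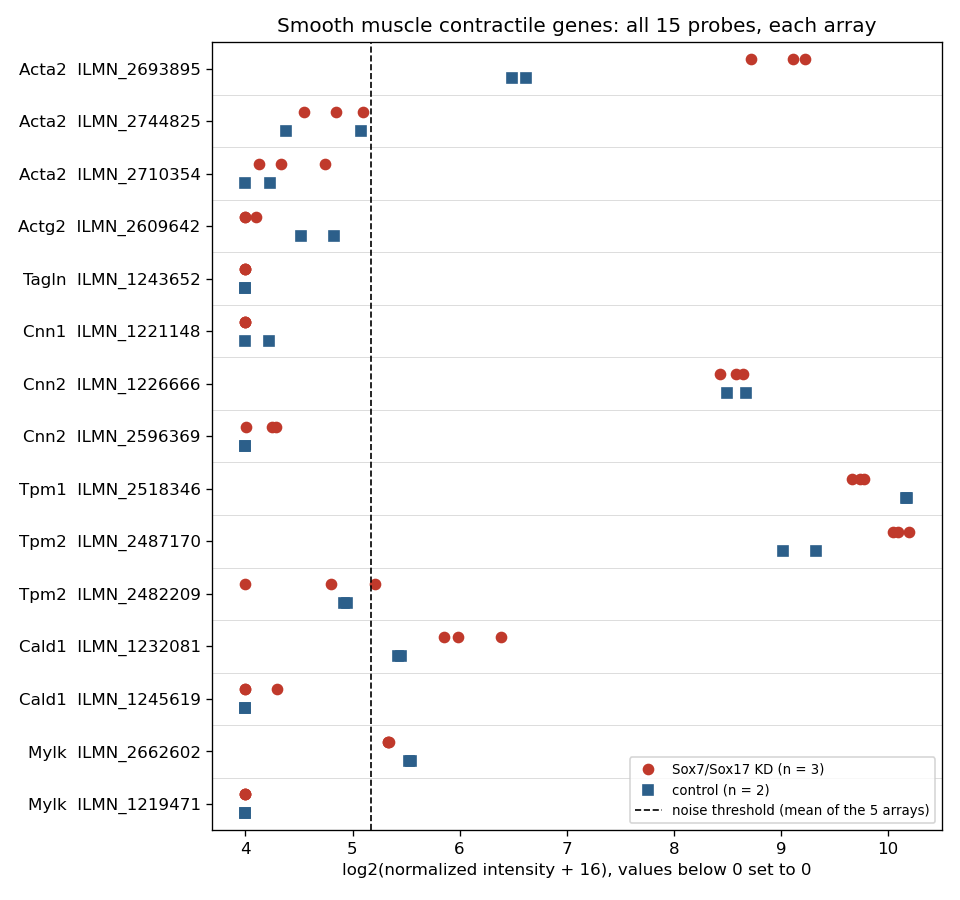
Normalized intensity of all 15 probes of the contractile genes on each array, as log2(intensity + 16), with the knockdown arrays above the control arrays in each row and the noise threshold dashed. The brightest Acta2 probe and the brightest Tpm2 probe are higher on all 3 knockdown arrays, the Tpm1 probe is lower on them, and the probes of Actg2, Tagln and Cnn1 stay under the threshold throughout.

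Acta2 encodes smooth muscle alpha-actin and lies on chromosome 19 of GRCm38.p6, from 34240336 to 34255585. Its probe ILMN_2693895 had 536, 405 and 582 in knockdown cells, against 73.8 and 82.1 in control cells. All 3 knockdown arrays lay far above both control arrays, which were themselves above noise. The difference was 2.46 (SE 0.168, 95% confidence interval 2.06 to 2.87, adjusted p = 0.0010), or 5.52-fold, the seventh largest rise among the 871 called. Omitting any 1 array left Acta2 called, at adjusted p from 0.0048 to 0.015.

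Only 1 of the 3 Acta2 probes carried this change. The probe ILMN_2744825 had 18.2, 7.39 and 12.8 in knockdown cells, against 17.7 and 4.78 in control cells. The probe ILMN_2710354 had 4.15, 1.5 and 10.7 in knockdown cells, against 2.82 and -12.9 in control cells. Both lay under the noise threshold on all 5 arrays, so they give no level and no change for Acta2, and the rise rests on a single probe. Where in the transcript each probe lies was not analysed here.

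Actg2, the gamma-actin of visceral smooth muscle, is on chromosome 6 from 83512909 to 83536251. Its probe had -15.0, 1.14 and -7.29 in knockdown cells, against 6.995 and 12.35 in control cells. The knockdown arrays were the lower ones, but every value was under the noise threshold and the probe was not tested.

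Actin genes are close in sequence, and probe sequences were not used, so a probe named for one actin may take signal from another. Acta1, the skeletal muscle actin, had 44.5, 61.1 and 73.9 in knockdown cells, against 14.3 and 0.381 in control cells. Its controls were both under the noise threshold, so its difference is a bound, at least 2.07-fold higher in knockdown cells. It passed the noise filter through the knockdown arrays alone, so its call is no independent support. That call was also lost without control replicate 2. Actc1, the heart actin, had 24.9, 22.2 and 18.5 in knockdown cells, against 21.9 and 24.5 in control cells, and was not called (difference -0.05, 95% interval -0.33 to 0.22). The cytoplasmic actin Actb differed by -0.04 (95% interval -0.29 to 0.21) and none of its 4 probes was called. The part of shared signal in the Acta2 value was not tested.

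Among the actin-binding members, none was called. Tagln encodes transgelin, an actin cross-linker abundant in smooth muscle, on chromosome 9 from 45929628 to 45936058. Its probe was below 0 on every array, with -16.0, -19.9 and -20.8 in knockdown cells, against -18.9 and -23.5 in control cells. Cnn1, the smooth muscle calponin that restrains myosin's ATPase, is on chromosome 9 from 22099221 to 22109221. It had -2.26, -2.75 and -11.3 in knockdown cells, against -10.6 and 2.60 in control cells. Neither gene was detectable on any array, so these data set no level for either.

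Cnn2, a calponin of many non-muscle cells, was well above noise and did not separate the groups. Its probe ILMN_1226666 had 329, 367 and 383 in knockdown cells, against 392.4 and 343.9 in control cells. The values of the groups overlapped, and the difference was -0.03 (95% interval -0.32 to 0.25, adjusted p = 0.88). A second Cnn2 probe was under the noise threshold on all arrays, at 0.0473 to 3.47 in knockdown cells and below 0 in control cells.

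Cald1 encodes caldesmon, which binds actin and myosin and holds back their interaction. Its brighter probe ILMN_1232081 had 67.8, 41.7 and 47.4 in knockdown cells, against 27.7 and 26.9 in control cells. All knockdown arrays were above both control arrays, but they were spread widely, and the difference of 0.64 (SE 0.171, 95% interval 0.22 to 1.06) was not called (adjusted p = 0.055). It was called with an intensity trend and robust estimation in limma (adjusted p = 0.041) and with an offset of 64 (adjusted p = 0.042). The other Cald1 probe was under the noise threshold on every array. Knockdown replicate 2 was the lowest knockdown array for both Acta2 and Cald1 and the highest for Tpm2.

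The tropomyosins, coiled-coil proteins that lie along actin filaments, moved in opposite directions. Tpm2, on chromosome 4 from 43513726 to 43523583, encodes beta-tropomyosin. Its probe ILMN_2487170 had 1039, 1155 and 1075 in knockdown cells, against 503 and 624 in control cells. The groups did not overlap, and Tpm2 rose by 0.94 (SE 0.126, 95% interval 0.63 to 1.25, adjusted p = 0.0076), or 1.92-fold. The call held without any 1 array, with adjusted p from 0.023 to 0.045, but was lost when every probe was tested with no filter (adjusted p = 0.055). Its other probe had 11.9, 21.0 and -0.608 in knockdown cells, against 14.9 and 14.2 in control cells, above noise on 1 array only, and was not tested.

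Tpm1, on chromosome 9 from 67022590 to 67049672, encodes alpha-tropomyosin. Its single probe had 792, 859 and 840 in knockdown cells, against 1144 and 1132 in control cells. The knockdown arrays were the lower ones without overlap, and Tpm1 fell by 0.45 (SE 0.095, 95% interval -0.68 to -0.22, adjusted p = 0.029). The call was lost without any 1 array, whether control replicate 1 or 2 (adjusted p = 0.13 for each) or knockdown replicate 1, 2 or 3 (adjusted p = 0.073, 0.062 and 0.073). The tropomyosin genes make many isoforms by splicing and from several starts, and an array probe reads only those that hold its target.

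Mylk, the kinase that starts smooth muscle contraction, was close to noise. Its brighter probe ILMN_2662602 had 24.2, 24.2 and 24.5 in knockdown cells, against 30.0 and 30.7 in control cells. The knockdown arrays were all lower, by 0.20 (95% interval -0.42 to 0.02), which was not called (adjusted p = 0.18). Its other probe was below 0 on all arrays. Mylk was called lower when all probes were tested without a filter (adjusted p = 0.018).

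**Figure D2:**
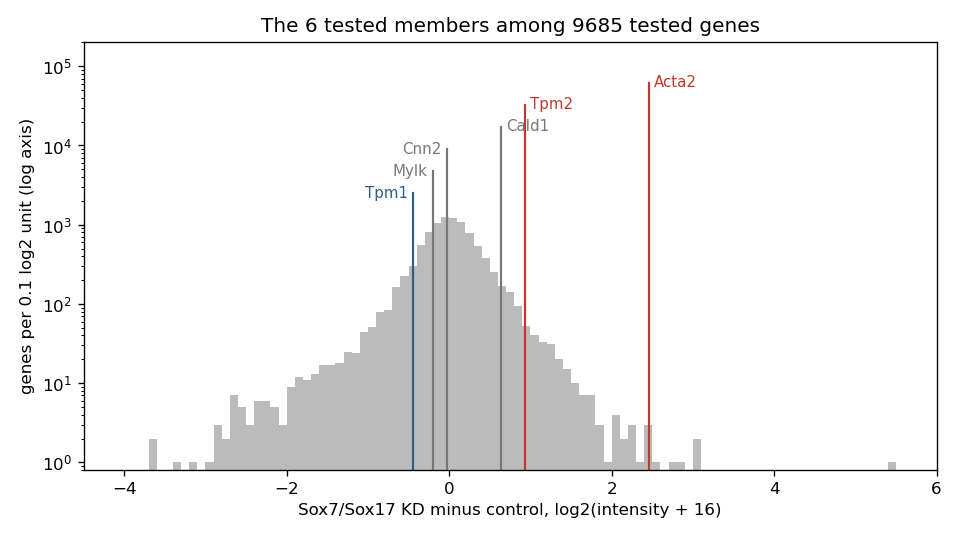
Differences of the 6 tested contractile genes (lines, red where called higher, blue where called lower, grey where not called) over the histogram of all 9685 tested genes, on the log2(intensity + 16) scale with a log axis for the number of genes. Acta2 at 2.46 lies in the upper tail, Tpm2 at 0.94 lies below it, and Cnn2, Mylk and Tpm1 lie among the bulk of the genes.

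SRF is known to act on this gene set through CArG boxes near gene starts, so the promoters of the called members Acta2, Tpm2 and Tpm1 are shown, with that of Cnn2 as a member well above noise that was not called. Of the 10 genes, 8 matched the RefSeq promoter table of GRCm38.p6, with 9 starts, and Tagln and Actg2 were not in it. Each sequence runs from 250 bases before to 50 bases after a start, and capitals mark a CArG box in which at most 1 of the 6 middle letters, normally all A or T, is G or C. The Acta2 window is chr19:34255324-34255623 on the minus strand, that of Tpm2 chr4:43523505-43523804 on the minus strand, that of Tpm1 chr9:67049164-67049463 on the minus strand and that of Cnn2 chr10:79988350-79988649 on the plus strand.
Acta2: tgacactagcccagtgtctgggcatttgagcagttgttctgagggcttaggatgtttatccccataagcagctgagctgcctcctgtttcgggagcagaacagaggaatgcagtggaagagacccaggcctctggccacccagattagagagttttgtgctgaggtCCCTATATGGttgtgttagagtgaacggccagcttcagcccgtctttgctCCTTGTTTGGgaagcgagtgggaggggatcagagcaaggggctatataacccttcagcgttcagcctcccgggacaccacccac
Tpm2: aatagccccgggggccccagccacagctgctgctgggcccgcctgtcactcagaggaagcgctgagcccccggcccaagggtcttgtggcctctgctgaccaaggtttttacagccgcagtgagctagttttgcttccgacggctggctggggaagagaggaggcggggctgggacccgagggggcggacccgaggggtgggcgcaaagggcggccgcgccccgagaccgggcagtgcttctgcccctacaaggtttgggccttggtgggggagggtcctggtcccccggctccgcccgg
Tpm1: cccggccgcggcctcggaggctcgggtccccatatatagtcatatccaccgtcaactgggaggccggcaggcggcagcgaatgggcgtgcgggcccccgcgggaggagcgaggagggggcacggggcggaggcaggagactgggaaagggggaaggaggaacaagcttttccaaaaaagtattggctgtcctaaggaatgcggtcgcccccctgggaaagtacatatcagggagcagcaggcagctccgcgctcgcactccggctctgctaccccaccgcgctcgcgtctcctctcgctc
Cnn2: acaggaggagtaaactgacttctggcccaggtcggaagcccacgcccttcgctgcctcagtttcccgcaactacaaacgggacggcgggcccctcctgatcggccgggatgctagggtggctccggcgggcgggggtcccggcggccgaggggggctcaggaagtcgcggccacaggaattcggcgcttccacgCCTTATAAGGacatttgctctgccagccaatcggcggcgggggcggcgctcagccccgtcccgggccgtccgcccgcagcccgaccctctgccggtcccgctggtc

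The Acta2 promoter held 2 such relaxed boxes, CCCTATATGG from -84 to -75 and CCTTGTTTGG from -34 to -25. All distances are counted from the start in that promoter table, and whether it is the start used in these cells was not checked. Cnn2, which was not called, held CCTTATAAGG from -56 to -47, a box with only A and T in the middle. Tpm2, which rose, and Tpm1, which fell, held no match in this window. Among the other starts, that of Myl9 had matches and those of Cnn1, Cald1 and Mylk had none, so 3 of 9 member promoters held a relaxed box, against 9.98% of the 32851 promoters of this length in the table. A box with only A and T in the middle was in 2 of 9, against 1.63% of all. The core AACAAT of the SOX recognition sequence, searched on both strands, was at Cnn1 from -148 to -143 and at 1 of the 2 Cald1 starts from -46 to -41, and 10.7% of all promoters held it. A match is a description of these letters only, and binding was not measured.

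Of 16 paralogs of the members, 11 had a probe and all of these were tested, with Acta1 called higher, Tpm4 called lower and 9 not called. Without Acta1, which passed the filter through the knockdown arrays alone, 0 of 10 were called higher (also 0 at an unadjusted p under 0.05) and 1 lower. Over all genes, 8.99% were called higher and 7.98% lower. Tpm4, a tropomyosin of non-muscle cells, had 6101, 5620 and 6018 in knockdown cells, against 7822 and 8307 in control cells, and fell by 0.45 (SE 0.098, adjusted p = 0.032). That call was lost without any 1 of the 5 arrays, and the other Tpm4 probes, at -0.40 and -0.47, were not called. The calponin Cnn3 differed by 0.21 (95% interval -0.11 to 0.53) and the transgelin Tagln2 by 0.14 (95% interval -0.19 to 0.47). The myosin light chains Myl6, Myl12a and Myl12b, which serve non-muscle myosin as well, differed by -0.05, -0.05 and -0.11, and none was called.

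Of 27 further smooth muscle genes, 22 had a probe and 15 were tested. Of these, 3 were called higher, beside 8.99% of all genes, and 3 lower, beside 7.98%. Their median difference was -0.01, beside 0.0047 over all tested genes. Ppp1r14a, which encodes an inhibitor of myosin phosphatase enriched in smooth muscle, had 240, 198 and 189 in knockdown cells, against 107 and 84.2 in control cells. It rose by 1.01 (SE 0.147, adjusted p = 0.0093) and its second probe rose by 0.50 (adjusted p = 0.031), though the first probe's call was lost without control replicate 2 and the second's without any 1 of the 5 arrays. Aoc3, a vascular amine oxidase, had 75.2, 62.4 and 75.4 in knockdown cells, against 40.5 and 23.9 in control cells. It rose by 0.87 (adjusted p = 0.023) but was not called without control replicate 2 or knockdown replicate 1 or 3. Pdlim7, an actin-linked LIM protein, rose by 0.46 (adjusted p = 0.047).

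On the lower side, Fhl1, a LIM domain protein of muscle, had 1354, 1428 and 1485 in knockdown cells, against 3304 and 3742 in control cells, and fell by 1.297 (SE 0.107, adjusted p = 0.0016). Its call held without any 1 array. Smtn, the smooth muscle cytoskeletal protein smoothelin, had 281, 306 and 338 in knockdown cells, against 465 and 443 in control cells, and fell by 0.54 (SE 0.113, adjusted p = 0.028). Smtn was thus lower where Acta2 was higher, with a call lost without either control array or without knockdown replicate 1 or 2. Pdlim5 fell by 0.54 (adjusted p = 0.032). The calls of Pdlim7 and Pdlim5 were lost without any 1 of the 5 arrays. With an array left out, 0 to 2 of these genes were called higher and 1 to 2 lower.

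Other genes typical of mature smooth muscle were under noise or not called. Myh11, the smooth muscle myosin heavy chain, had 13.2, 4.28 and 0.992 in knockdown cells, against -0.0959 and 1.67 in control cells, and was not tested. Des, desmin, had 21.7, 51.1 and 34.8 in knockdown cells, against 26.8 and 49.1 in control cells, with full overlap (difference -0.07, 95% interval -0.76 to 0.62). Lmod1, leiomodin, differed by 0.32 (95% interval -0.11 to 0.76) and was not called. Itga8, Pdlim3, Pgm5, Kcnmb1, Casq2 and Prkg1 were above noise on no array.

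**Figure D3:**
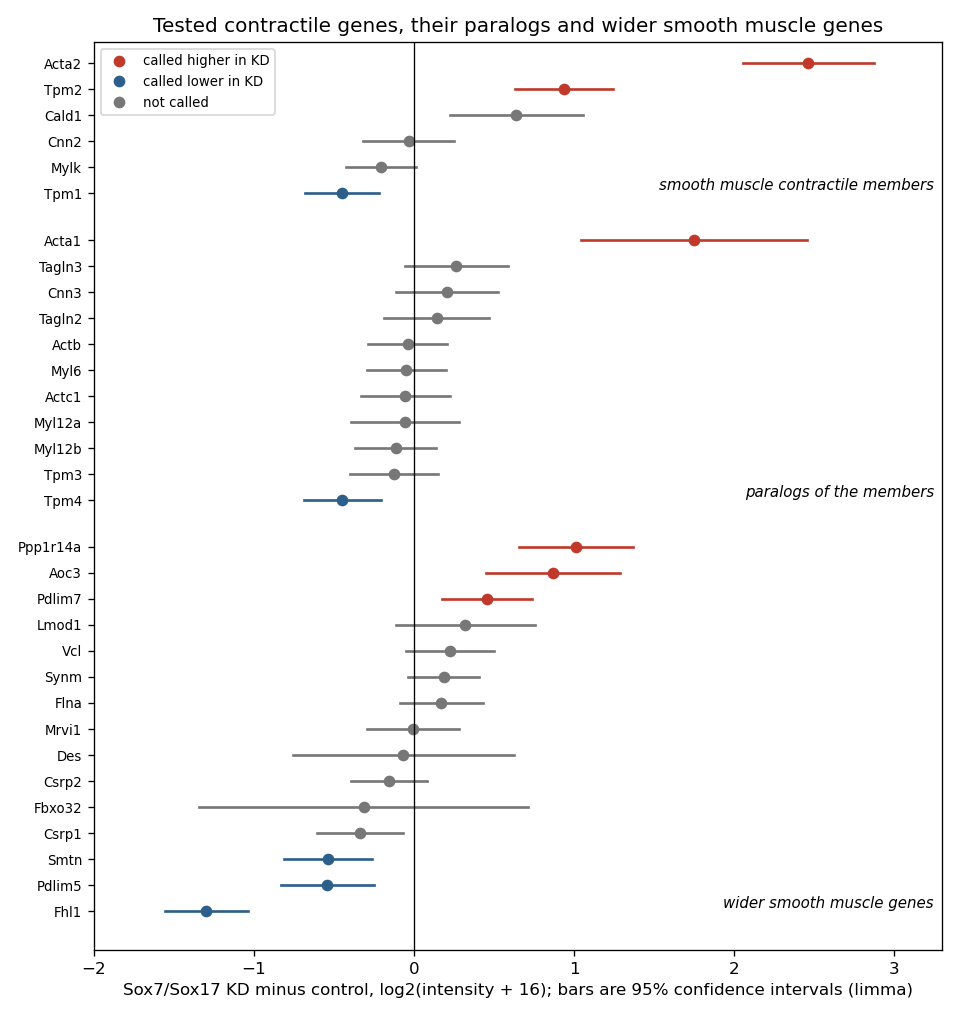
Knockdown minus control differences with 95% confidence intervals from limma, on the log2(intensity + 16) scale, for the tested contractile genes, their paralogs and the wider smooth muscle genes, ordered by size within each group. Acta2 and Acta1 lie to the right of the other actins, Tpm2 to the right of Tpm1, Tpm3 and Tpm4, and most intervals of the remaining genes include 0.

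Of 21 genes for SRF, its cofactors and their upstream signals, 20 had a probe and 12 were tested. Of these, 2 were called higher and 0 lower (3 and 0 at an unadjusted p under 0.05). Over all genes, 8.99% were called higher, 7.98% lower and 17.0% in either direction. The total of 2 among 12 was near the last share, while both calls were on the higher side. Srf had 1695, 1606 and 1447 in knockdown cells, against 1617 and 1930 in control cells, with overlap (difference -0.16, 95% interval -0.47 to 0.15). Myocd, the myocardin gene that drives smooth muscle genes with SRF, was close to the noise threshold, with 23.8, 34.5 and 18.8 in knockdown cells, against 24.7 and 16.6 in control cells. The other cofactor genes Mrtfa and Mrtfb were above noise on no array.

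The called pair were Smad3, which carries TGF-beta signals, and Notch3, a receptor of vascular smooth muscle. Smad3 had 1571, 1474 and 1534 in knockdown cells, against 957 and 1020 in control cells, and rose by 0.62 (SE 0.096, adjusted p = 0.011). Notch3 had 513, 479 and 476 in knockdown cells, against 339 and 284 in control cells, and rose by 0.63 (SE 0.114, adjusted p = 0.017). The call of Smad3 was lost without either control array, and that of Notch3 without control replicate 2 or knockdown replicate 1 or 3.

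Of 20 cytoskeletal and growth-response targets of SRF, 16 had a probe and 15 were tested. At an unadjusted p under 0.05, 0 of these were higher and 6 lower, a cut with no share over all genes counted. At the adjusted cut, 0 were called higher, beside 8.99% of all genes, and 3 lower, beside 7.98%. Without Ccn1, which passed the filter through the control arrays alone, 2 of 14 were lower. Egr1, an immediate early transcription factor gene, had 180, 293 and 299 in knockdown cells, against 589 and 963 in control cells, and fell by 1.53 (SE 0.287, adjusted p = 0.020). Ccn1, a secreted matrix protein, was under noise on every knockdown array and at 75.01 and 44.35 in control cells, at least 2.05-fold lower in knockdown cells. Myh9, the main non-muscle myosin heavy chain, had 5576, 5329 and 5500 in knockdown cells, against 7985 and 8771 in control cells, and fell by 0.61 (SE 0.098, adjusted p = 0.012). The first Ccn1 probe was not called without control replicate 1, nor Egr1 without control replicate 2, nor Myh9 without either control array. Vcl and Flna, which anchor and cross-link actin, differed by 0.22 and 0.17 and were not called.

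Genes that set the phosphorylation of myosin were mostly not called. Of 23, 19 had a probe and 17 were tested, with 3 higher, beside 8.99% of all genes, and 1 lower, beside 7.98%. Beside Ppp1r14a, its relative Ppp1r14b had 2084, 2178 and 2171 in knockdown cells, against 1582 and 1476 in control cells, and rose by 0.48 (adjusted p = 0.023). Myh10, another non-muscle myosin heavy chain, had 655, 686 and 753 in knockdown cells, against 513 and 529 in control cells, and rose by 0.41 (adjusted p = 0.048), in the opposite direction to Myh9. The calls of Ppp1r14b and Myh10 were lost without any 1 of the 5 arrays. The phosphatase subunit genes Ppp1r12a and Ppp1cb differed by -0.09 and 0.13, and neither was called.

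Of 25 genes of heart and skeletal muscle, 23 had a probe, 11 were tested, 4 were called higher and 0 lower (1 at an unadjusted p under 0.05, the troponin gene Tnnc1, at -0.64 with adjusted p = 0.086). Leaving aside genes that passed the filter through the knockdown arrays alone, among them Acta1, 3 of 9 were higher, beside 8.99% of all genes. Beside Acta1, the atrial myosin light chain gene Myl4 had 2669, 2774 and 2555 in knockdown cells, against 1049 and 1156 in control cells, and rose by 1.26 (SE 0.101, adjusted p = 0.0015). Myl7, another atrial light chain gene, had 352, 347 and 346 in knockdown cells, against 164 and 197 in control cells, and rose by 0.90 (SE 0.111, adjusted p = 0.0058). Both calls held without any 1 array. Tnnt1, slow skeletal troponin T, rose by 0.44 (adjusted p = 0.047) and was not called with any 1 array omitted. Of the 23 genes with a probe, 11 were under noise on every array, among them Myh6, Myh8, Myl1, Myl2, Myl3, Myod1, Myog and Ryr2.

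Among markers of mural cells, fibroblasts and mesothelium, some tested genes of each list were called and others were not. In RNA from whole cultures, fewer cells of a type and less RNA per cell cannot be told apart. Of 11 genes of mural cells and pericytes, 9 had a probe and 6 were tested. Notch3 and Pdgfrb were called higher and 0 lower (4 and 0 at an unadjusted p under 0.05). Over all genes, 8.99% were called higher and 7.98% lower. Pdgfrb had 125, 143 and 149 in knockdown cells, against 85.6 and 83.5 in control cells, and rose by 0.62 (adjusted p = 0.017), but was not called without either control array or without knockdown replicate 2 or 3. The summed intensity of the 9 genes was 1205 to 1316 in knockdown cells and 854 to 932 in control cells, while Kcnj8 and Abcc9 were above noise on no array.

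Of 17 fibroblast markers, 16 had a probe and 9 were tested, with 4 higher and 1 lower. Loxl1, a lysyl oxidase relative, had 1010, 905 and 943 in knockdown cells, against 270 and 292 in control cells, and rose by 1.70 (SE 0.102, adjusted p = 0.00081). Dcn, the proteoglycan decorin, had 34.3, 29.7 and 46.8 in knockdown cells, with both control arrays below 0, at least 1.45-fold higher. A second Dcn probe differed by 0.71 and was not called (adjusted p = 0.12), and both passed the filter through the knockdown arrays alone. Without Dcn, 3 of 8 tested markers were higher, beside 8.99% of all genes, and 1 was lower, beside 7.98%. Mfap5, a microfibril gene, rose by 1.16 and Thy1, a surface protein gene, by 0.89, the last a call lost without control replicate 2 or any 1 knockdown array. Pdgfra had 1093, 1147 and 950 in knockdown cells, against 3886 and 4560 in control cells, and fell by 1.97. The summed intensity was 13839 to 14636 in knockdown cells and 14245 to 15111 in control cells. Most of that sum was Vim, a filament gene, with 11059, 10760 and 11671 in knockdown cells, against 10135 and 8527 in control cells (difference 0.26, not called), beside the opposite difference of Pdgfra. Col1a2, Col3a1, Fap, Lum, Postn and S100a4 were above noise on no array.

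Of 11 mesothelial markers, all had a probe and 9 were tested, with 2 higher and 1 lower. Wt1, a transcription factor gene of the mesothelium and urogenital ridge, had 389, 324 and 420 in knockdown cells, against 30.1 and 30.0 in control cells, and rose by 3.09 (SE 0.132, adjusted p = 0.00081). Msln, mesothelin, had 95.4, 48.8 and 114 in knockdown cells, with both control arrays under noise, at least 2.71-fold higher. Its call was lost without either control array. Msln passed the filter through the knockdown arrays alone. Leaving aside such genes, 1 of 7 was higher, beside 8.99% of all genes, and 1 lower, beside 7.98%. Krt8 fell by 0.49, a call lost without either control array or without knockdown replicate 2 or 3. The summed intensity was 3796 to 4312 in knockdown cells and 4098 to 4176 in control cells. Most of that sum was 2 genes with opposite differences. Krt8 had 2082, 1794 and 1845 in knockdown cells, against 2762 and 2588 in control cells. Cdh1 had 1060, 1078 and 963 in knockdown cells, against 664 and 899 in control cells, and was not called. Tbx18 was above noise on no array. The part of any of these cell types in the Acta2 rise was not tested.

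Markers of the labelled cell line were above noise in both groups. All 7 embryonal carcinoma markers with a probe were tested. Of these, 2 were called higher (Nanog and Tdgf1), 1 lower (Lin28a) and 4 were not called, beside 8.99% of all genes higher and 7.98% lower. Their summed intensity was 24522 to 27153 in knockdown cells and 19357 to 21383 in control cells. Nanog alone had 12969 to 15128 of this in knockdown cells and 9892 to 10421 in control cells. Of 12 extra-embryonic endoderm markers, 11 were tested and all 11 were called lower, beside 7.98% of all genes. There were 0 higher (also 0 at an unadjusted p under 0.05), and the median difference was -1.79. Dab2, an endocytic adaptor gene, fell by 2.44 and Col4a1, a basement membrane collagen gene, fell by 2.19. The laminin gene Lamb1 fell by 1.95 and Sparc, a matrix glycoprotein gene, fell by 1.81. Over all 12, the summed intensity was 24844 to 28058 in knockdown cells and 93706 to 95443 in control cells. Col4a2 alone had 9107 to 10198 of this in knockdown cells and 33622 to 34349 in control cells. The fall of endoderm markers was already known from these arrays, and its part in the changes of the contractile genes was not tested.

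**Figure D4:**
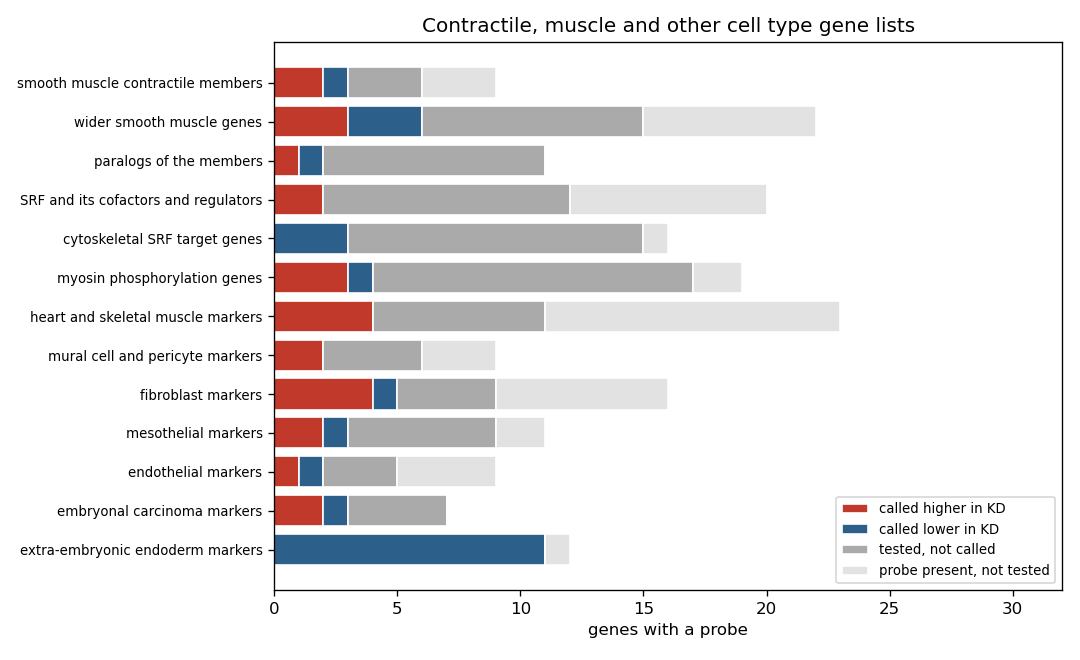
Number of genes with a probe in each list, divided into those called higher in knockdown cells, called lower, tested and not called, and not tested for want of a probe that passed the noise filter. The contractile genes have 2 higher and 1 lower, the cytoskeletal SRF targets 3 lower, and the extra-embryonic endoderm markers 11 lower.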

How the data were processed

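Total RNA of 5 F9 samples was hybridised to Illumina expression arrays, per the labels' protocols. The deposited table holds 24613 probes as linear intensities. About 29% of each array's values lay below 0 and sorted values differed by at most 0.394 between arrays, so background subtraction and equalised distributions before deposit are read from the values. Which software the authors used is not stated in the sources used. A further table of raw signals was left out, since none of its 10 columns of sample values matches a label.

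Intensities below 0 were set to 0, 16 was added and log2 taken. The noise threshold is the 90% quantile of the sizes of an array's values below 0. limma 3.58.1 (lmFit, eBayes, 3 residual degrees of freedom) in R 4.3.3 compared 3 knockdown with 2 control arrays over 13624 probes, and was tested on simulated data. A permutation of 1 value cannot go below p = 0.1 here. The number of arrays limits the precision. Tables and figures used Python 3.11.15, pandas 2.3.3 and matplotlib 3.10.9.

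Gene symbols came from the platform annotation, checked by gene identifier against RefSeq GRCm38.p6. A total of 20984 probes had 1 symbol, 1 had several and 3628 were unlisted. For each gene the brightest tested probe was used. The members and lists were chosen with earlier results of these data known. Named were all members, the targeted genes, up to 4 called genes per list by size of difference and each gene that a count of 5 or fewer rests on, with uncalled or undetected genes of the lists named after their values were seen.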

Additional observations from a re-analysis of the deposited data

How the results depend on the processing

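The rises of Acta2 and Tpm2 kept their direction under all alternatives run (13 each), and Acta2 kept its call in each. Among these, the choice of the dimmest tested probe could not differ, since each gene had only 1 tested probe. Testing all probes with no filter left 770 genes called, with 1 member higher (Acta2) and 2 lower (Tpm1 and Mylk), against 1644, 2 and 1 otherwise. An intensity trend with robust estimation called 2629 genes and 3 members higher, the third being Cald1. With the replicate number as a block, 828 genes were called and 0 members were lower, Tpm1 having adjusted p = 0.10, while Acta2 and Tpm2 kept their calls. The labels do not say whether equal numbers share a culture or day. Deviations of same-numbered arrays from their group means correlated at 0.0072 and 0.073. With 2 control arrays those deviations are equal and opposite, so these values cannot decide whether such a pairing exists. Leaving out 1 array gave 444 to 1108 called genes, with 2 members higher each time and 0 lower each time. Fewer arrays leave fewer degrees of freedom, and a lone control array is assumed to vary like the knockdown arrays. An offset of 8 or 64 gave 1427 and 2413 called genes, a mean intensity above 50 gave 2114, median centring 1644 and the dimmest tested probe per gene 1590. For single genes, with Sox17 and Sox7 included, 92 of the alternatives kept the side of the threshold. A call was lost in 7 (6 of Tpm1 and 1 of Tpm2) and gained in 3 (2 of Cald1 and 1 of Mylk). None turned a called direction round. Of the counts of the other lists, 112 stayed within 1.5 times and 80 did not. Signal over background limits Actg2, Tagln, Cnn1 and the dimmer probes of Acta2, Cnn2, Cald1 and Mylk, for which no change could be seen at these intensities.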

Other observations

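Endothelial markers belong to vessels, where the SOX pair is known to act. All 9 had a probe and 5 were tested, with 1 called higher, 1 lower and 3 not called (Pecam1, Cdh5 and Vwf). Over all genes, 8.99% were called higher and 7.98% lower. Esam, an adhesion gene, had 665, 547 and 655 in knockdown cells, against 956 and 928 in control cells, and fell by 0.59 (limma adjusted p = 0.025). Eng, a TGF-beta co-receptor, had 113, 146 and 130 in knockdown cells, against 87.3 and 77.8 in control cells, and rose by 0.56 (adjusted p = 0.037). Each call was lost without either control array or without knockdown replicate 2 or 3. Kdr, Tek, Tie1 and Emcn were above noise on no array. Among embryonal carcinoma markers, Tdgf1, a Nodal co-receptor, had 408, 286 and 259 in knockdown cells, against 148 and 127 in control cells, and rose by 1.10 (adjusted p = 0.018), but was not called without either control array. Nanog, a pluripotency factor gene, had 13908, 12969 and 15128 in knockdown cells, against 10421 and 9892 in control cells. It rose by 0.46 (adjusted p = 0.039), a call lost with any 1 array omitted. Further Nanog probes rose by 0.79 (adjusted p = 0.0080, lost only without control replicate 2) and 0.61 (adjusted p = 0.025, kept only without knockdown replicate 2). Lin28a, an RNA-binding protein gene, had 154, 115 and 119 in knockdown cells, against 301 and 266 in control cells, and fell by 1.05 (adjusted p = 0.0083), which was not called without control replicate 1.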
